A study of Mus musculus with 58 samples.

Results

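The transcripts described here belong to the PPAR-alpha pathway and to the fatty acid oxidation that it controls. The 8 genes, Ppara, Fabp1, Ehhadh, Acadm, Cpt1a, Acot1, Pdk4 and Angptl4, were chosen by name and are 8 of the 20651 genes that could be named on the array. They were represented by 11 of its 55681 probes, with 3 probes for Ppara, 2 for Cpt1a and 1 for each other gene. Adult male Muta™Mouse, a transgenic strain that carries a lacZ reporter for mutations, received indeno(123,cd)pyrene (IP), a polycyclic aromatic hydrocarbon, in olive oil by oral gavage for 28 consecutive days at 50, 25 or 12.5 mg/kg-bw/day, at an age of about 13 weeks. Vehicle control mice received olive oil only, so that a daily gavage of oil, itself a source of fatty acids, was common to all groups. Lung, liver and forestomach were collected 72 h after the final dose, and RNA of each tissue and mouse was hybridized in Cy5 against a universal mouse reference RNA from 11 mouse cell lines in Cy3. Lung had 5 mice in each of the 4 groups, whereas liver and forestomach had 4 vehicle mice and 5 mice at each dose, 58 arrays in all. Mice 1 to 5 were vehicle controls, mice 6 to 10 received 12.5, mice 11 to 15 received 25, and mice 16 to 20 received 50 mg/kg-bw/day. Vehicle mouse 4 was measured in lung alone. The lung labels name more vehicle mice than the study's account of the control group, and all labelled vehicle lungs were used.

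PPAR-alpha, encoded by Ppara, is a nuclear receptor that binds fatty acids and activates transcription as a heterodimer with RXR on direct repeats of a short hexamer. It is abundant in hepatocytes, where it drives the response to fasting by raising fatty acid uptake, mitochondrial and peroxisomal β-oxidation and ketogenesis. Fabp1 carries fatty acids in the cytosol of liver cells, Cpt1a admits long-chain fatty acids to mitochondria, Acadm performs the first step of β-oxidation on medium-chain acyl-CoA, and Ehhadh is the bifunctional enzyme of peroxisomal β-oxidation. Acot1 hydrolyses acyl-CoA, Pdk4 inhibits pyruvate dehydrogenase and thereby spares glucose, and Angptl4 is a secreted inhibitor of lipoprotein lipase. The last 2 respond to fasting in many tissues besides liver, including fat and heart.

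The promoters of the genes were examined for the repeat that the receptor binds, and the windows of Fabp1 and Cpt1a are shown because they hold a repeat and a single hexamer. RefSeq promoter windows of GRCm38.p6, which span 250 bases before to 50 bases after each start, were found for 7 of the 8 genes. A direct repeat of the hexamer with a 1-base spacer (AGGNCANAGGNCA, either strand) was present in 125 of 32851 windows (0.3805%). Fabp1 was the 1 gene of the 7 that held it, as AGGCCATAGGTCA on the opposite strand at chr6:71199812-71199824, beginning at position -67 from the start. The single hexamer AGGTCA, which a repeat can contain, occurred in 16.26% of all windows, and among the 7 genes in those of Fabp1, Cpt1a and Acadm. The 120 bases before the start on the plus strand are given below (Fabp1, chr6:71199759-71199878; Cpt1a, chr19:3323181-3323300), with the repeat and the single hexamers in capitals. A match in these letters is a description and not a measured binding site. Sequence outside these windows and looser forms of the repeat were not searched, so a window without a match does not show that the gene lacks one.
Fabp1: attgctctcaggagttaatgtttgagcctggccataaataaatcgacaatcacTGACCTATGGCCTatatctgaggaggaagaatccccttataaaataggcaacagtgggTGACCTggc
Cpt1a: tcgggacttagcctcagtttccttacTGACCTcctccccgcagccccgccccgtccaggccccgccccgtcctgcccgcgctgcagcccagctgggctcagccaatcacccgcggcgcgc

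Levels are given as log2 ratios of the mouse sample over the reference RNA, so that a value of 0 is the level of the cell line RNA and a step of 1 is a doubling. They compare 1 probe between arrays and never one gene with another. The labelled tissues carried their markers. In vehicle mice the mean log2 ratio of 10 hepatocyte markers was 7.82 in liver, that of 10 lung epithelial markers was 5.50 in lung, and that of 10 squamous epithelial markers was 4.46 in forestomach. In forestomach the mean of 9 glandular stomach markers varied from 0.61 to 6.43 between vehicle mice, and its part in the forestomach values was not tested. The share of probes well above background in Cy5 was 53.0 to 70.4% on most lung arrays, 37.6 to 45.0% on most liver arrays and 43.0 to 58.9% on most forestomach arrays, but 66.6 to 90.7% on 11 arrays that stood apart (4 in lung, 5 in liver, 2 in forestomach). Lung and forestomach shared 5 slides and liver had 3 slides of its own with another version of the scanner software, so tissue cannot be told apart from slide in any comparison with liver. Each dose lay at its own array positions, apart from 2 liver arrays, so dose cannot be told apart from array position. In whole tissue, fewer cells of a type and less RNA per cell cannot be told apart.

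Liver had the highest vehicle mean of 6 of the 8 genes, and for 5 of them it passed the threshold (1.5-fold, limma adjusted p of at most 0.05) against both other tissues. In the liver of the 4 vehicle mice, Ppara measured 7.30, 7.10, 6.64 and 7.07 on the log2 ratio scale (mean 7.03 ± 0.28, SD), against 2.70 ± 0.13 in the lung of 5 vehicle mice and 4.69 ± 0.22 in the forestomach of 4. The groups did not overlap, and lung was 20.0-fold and forestomach 5.05-fold lower than liver (limma adjusted p = 5.9e-22 and 2.8e-11). Forestomach was thus intermediate in its receptor transcript and exceeded lung by 1.99 (log2, 95% interval 1.51 to 2.47, limma adjusted p = 1.0e-09).

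**Figure D1:**
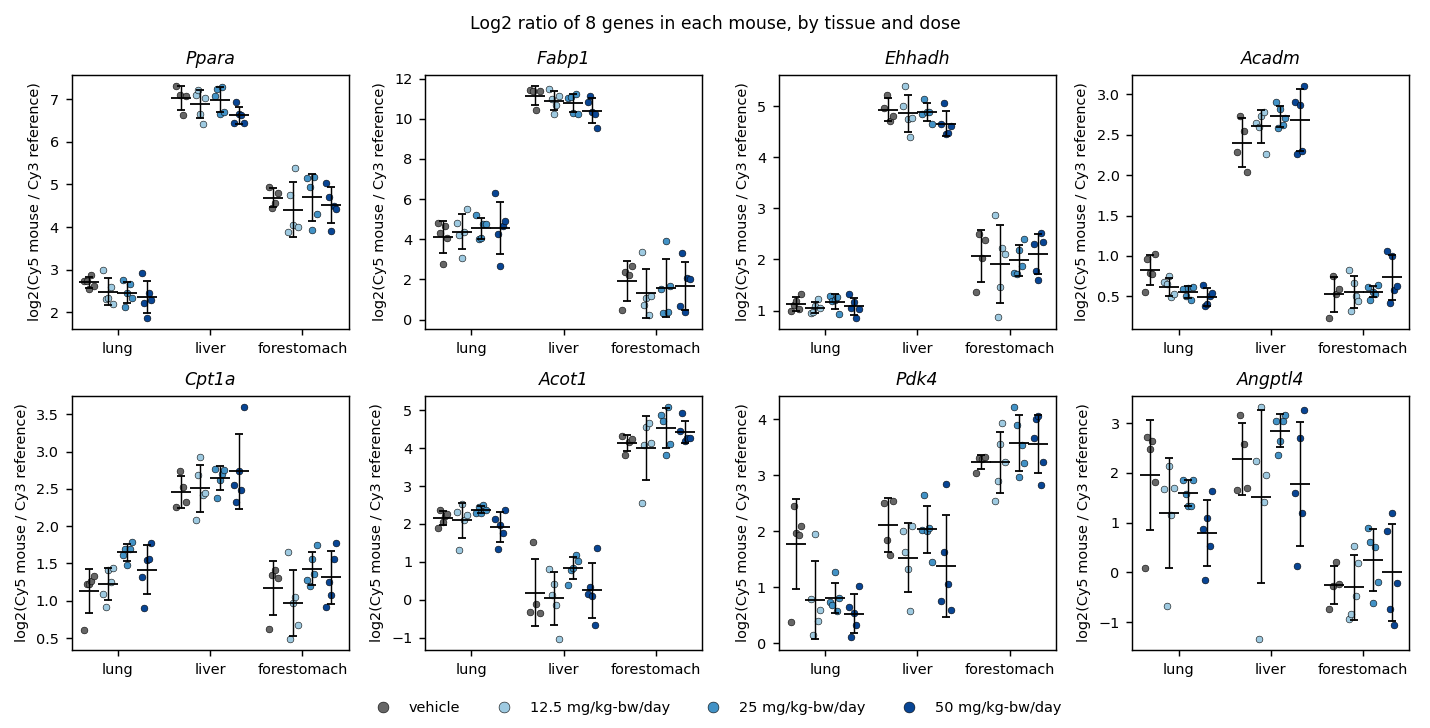
Log2(Cy5 mouse/Cy3 reference) of the 8 genes by tissue, with 1 point per mouse coloured by dose, a horizontal line at each group mean and bars of 1 SD. Ppara, Fabp1, Ehhadh, Acadm and Cpt1a are highest in liver and Acot1 in forestomach, while Pdk4 in lung has 4 of 5 vehicle mice at 1.94 to 2.46 and mice at 50 mg/kg-bw/day at 0.12 to 1.02. The vertical scale differs between panels.

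The binding protein Fabp1 had the widest range. Its log2 ratios in liver were 11.42, 11.37, 10.44 and 11.39 in vehicle mice, those in lung ranged from 2.75 to 4.82, and those in forestomach from 0.47 to 2.69. Lung was 132-fold and forestomach 595-fold lower than liver (limma adjusted p = 1.2e-14 and 5.8e-18), and the groups did not overlap. The exact size of these folds is limited by dim spots, since the mouse signal in forestomach was well above background on 15 of 19 arrays and the reference signal on 9 of 20 lung, 19 of 19 liver and 4 of 19 forestomach arrays. With the Cy5 channel alone the differences were -7.70 and -10.24 (log2).

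Both β-oxidation enzymes were also highest in liver. Ehhadh had mean log2 ratios of 4.93 ± 0.22 in liver, 2.07 ± 0.50 in forestomach and 1.13 ± 0.14 in lung of vehicle mice. It was 13.9-fold lower in lung and 7.26-fold lower in forestomach than in liver (limma adjusted p = 8.1e-21 and 3.9e-15), and 1.91-fold higher in forestomach than in lung (limma adjusted p = 6.9e-04). Acadm measured 2.40 ± 0.30 in liver, 0.82 ± 0.19 in lung and 0.53 ± 0.22 in forestomach. Liver exceeded lung 2.99-fold and forestomach 3.67-fold (limma adjusted p = 2.1e-14 and 4.3e-16). Lung and forestomach did not pass the threshold for Acadm, with a difference of -0.30 (95% interval -0.57 to -0.02, limma adjusted p = 0.10). The mitochondrial gate Cpt1a was 2.51-fold lower in lung and 2.45-fold lower in forestomach than in liver (limma adjusted p = 2.7e-07 and 1.9e-06), and lung and forestomach differed by 0.04 (95% interval -0.38 to 0.45).

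The remaining genes had other orders. Acot1 was lowest there, at -0.31, 1.52, -0.10 and -0.35 in vehicle mice, against 1.89 to 2.36 in lung and 3.82 to 4.31 in forestomach. Forestomach exceeded liver 15.4-fold and lung exceeded it by 1.96 on the log2 scale (limma adjusted p = 1.5e-13 and 3.3e-06). Acot1 has near-identical paralogs such as Acot2, so signal of these on its probe cannot be told apart. Pdk4 was highest in forestomach (3.24 ± 0.13) and measured 2.12 ± 0.48 in liver and 1.77 ± 0.80 in lung. Its difference between forestomach and lung was 1.47 (limma adjusted p = 0.0011), and that between lung and liver, -0.35 (95% interval -1.08 to 0.39), did not pass. The forestomach excess over liver of 1.12 (limma adjusted p = 0.0197) was lost without liver vehicle mouse 2 (adjusted p = 0.0597) or 3 (adjusted p = 0.0856), in the Cy5 channel alone (adjusted p = 0.0744) and with the scanner software's own ratio (adjusted p = 0.0932). Angptl4 was low in forestomach, at -0.73 to 0.20, and reached 1.67 to 3.16 in liver and 0.08 to 2.73 in lung, where vehicle mouse 1 alone was below 1.81. Forestomach was 5.78-fold lower than liver and 4.62-fold lower than lung (limma adjusted p = 9.6e-04 and 0.0027), and liver and lung did not pass (-0.32, 95% interval -1.52 to 0.87).

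**Figure D2:**
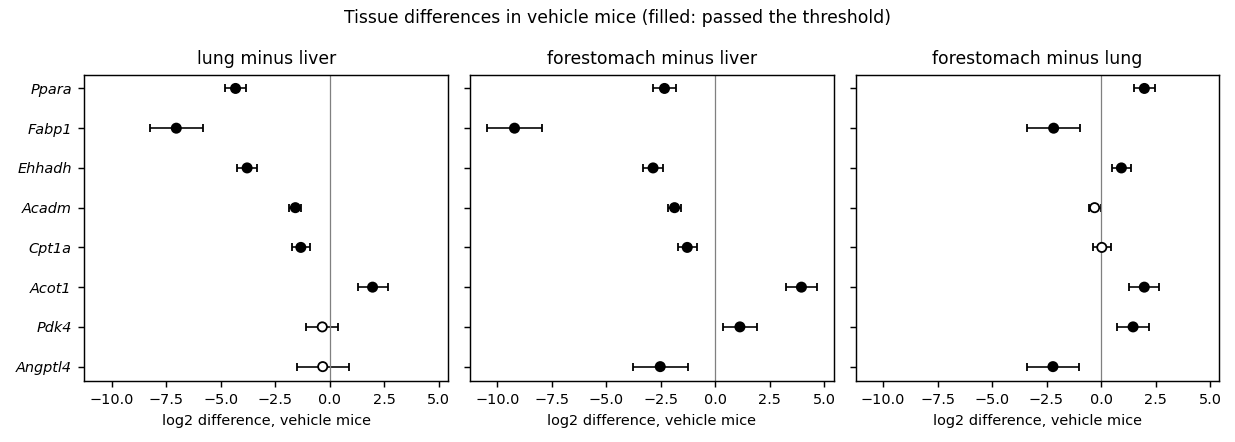
Log2 differences between tissues in vehicle mice (5 lungs, 4 livers, 4 forestomachs) for the 8 genes, with 95% intervals from the joint limma fit. Filled points passed a 1.5-fold change at an adjusted p of at most 0.05. In lung against liver 5 filled points lie left of 0 and Acot1 right of it, and in forestomach against lung Ppara, Ehhadh, Acot1 and Pdk4 lie right of 0.

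Counted over the 8 genes, 5 were lower and 1 was higher in lung than in liver, where 11.1% of all probes were lower and 15.7% higher. The shares among named genes for lung against liver, given below, were larger than these probe shares. In forestomach against liver 6 were lower and 2 were higher, against 9.89% and 12.8% of all probes. For forestomach against lung the counts were 2 lower and 4 higher, against 10.6% and 8.9% of all probes. Centring each array on its median in place of loess left Ppara, Fabp1 and Acot1 past the threshold in all 3 comparisons, but ended the call of Cpt1a and Acadm between lung and liver (-0.32 and -0.76), of Cpt1a between forestomach and liver (-0.92) and of Ehhadh and Pdk4 between forestomach and lung (0.45 and 0.75).

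The wider pathway was taken as 104 genes in 9 lists written by hand, which include the 8 genes. Its oxidation lists were mostly lower in lung and in forestomach than in liver. Of 18 genes of mitochondrial β-oxidation, 16 were lower in lung than in liver and none was higher, with a median of -1.93 (log2), whereas the median of all named genes was 0.02. Peroxisomal β-oxidation had 10 of 12 genes lower and 1 higher, and ω-oxidation, the microsomal route of the Cyp4a enzymes, had 6 of 7 lower with a median of -5.28. In forestomach against liver the corresponding counts were 14 of 18, 9 of 12 and 6 of 7 lower and none higher. Forestomach exceeded lung in 12 of 18 mitochondrial and 7 of 12 peroxisomal genes, with medians of 0.87 and 0.72. Of all probes, 9.89% were lower in forestomach than in liver and 8.9% were higher in forestomach than in lung. The shares and medians of all named genes are not given for these 2 comparisons. Over all lists 68 of 104 genes were lower and 18 higher in lung than in liver, where 16.4% of all named genes were lower and 24.8% higher.

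None of the 8 genes passed the same threshold at any dose of IP in any tissue. In lung the share of all probes that did was 0% at 12.5, 0.0126% at 25 and 0.079% at 50 mg/kg-bw/day, and in both other tissues it was 0% throughout. At an unadjusted limma p below 0.05, lung had 2 of the 8 genes at 12.5, 3 at 25 and 4 at 50 mg/kg-bw/day, while 3.92%, 6.54% and 8.81% of all probes reached it. All probes include unnamed ones, and in lung at 50 mg/kg-bw/day the share among named genes, given below, was higher. Liver had 0, 0 and 2 genes, against 2.58%, 4.42% and 6.84% of probes, and forestomach had none at any dose, against 4.12%, 3.59% and 3.89%. A difference that missed the threshold does not show that the groups were equal, and the intervals are plotted for each gene and dose.

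**Figure D3:**
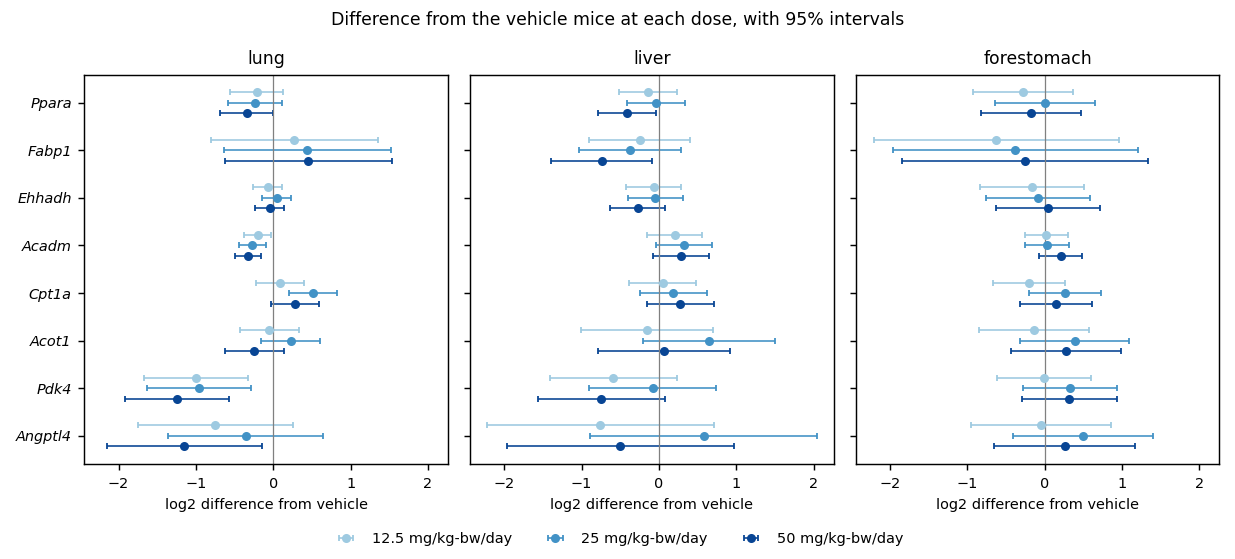
Log2 differences from vehicle for the 8 genes at each dose (12.5 to 50 mg/kg-bw/day, light to dark), with 95% intervals from the limma fit of each tissue. In lung all intervals of Pdk4 and Acadm lie below 0, none passing the adjusted threshold, and in forestomach every interval spans 0.

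Of the 8 genes, Pdk4 had the lowest difference from vehicle in lung at each dose with all mice included. Vehicle mice 1 to 5 measured 0.39, 2.46, 1.97, 1.94 and 2.10, and the mice at 50 mg/kg-bw/day measured 0.65, 0.12, 0.54, 0.33 and 1.02. Vehicle mouse 1 thus lay within the dosed range, whereas the other vehicle mice lay above all 5 dosed mice. At 12.5 mg/kg-bw/day the values were 0.79, 0.15, 1.95, 0.40 and 0.59, and at 25 mg/kg-bw/day 0.73, 0.68, 1.27, 0.57 and 0.81. The differences from vehicle were -0.996, -0.960 and -1.24 (SE 0.32) at the 3 doses, with limma adjusted p of 1.00, 0.459 and 0.123. The exact two-sided permutation p was 0.103, 0.048 and 0.032, where the smallest that 5 against 5 mice allow is 0.0079. With slide as a block the limma difference at 50 mg/kg-bw/day had an adjusted p of 0.0338 and passed both thresholds, and without vehicle mouse 1 it was -1.59 with an adjusted p of 0.0136. In these 2 fits 156 and 64 of all probes passed, against 44 with all mice and no block. Without vehicle mouse 4 the Pdk4 difference was -1.20 with a limma adjusted p of 0.224. Within the 5 slides, each with 1 vehicle and 1 high-dose mouse, the high-dose mouse was lower on 4, with a range of -2.34 to 0.27 and a median of -1.43.

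Angptl4 in lung had more spread. The vehicle values were 0.08, 2.73, 2.49, 2.64 and 1.81, and those at 50 mg/kg-bw/day were 0.88, -0.15, 1.09, 0.54 and 1.64. All 5 high-dose mice lay below the 4 higher vehicle mice and mouse 1 lay among them. The difference was -1.15 (SE 0.48, limma adjusted p = 0.470) at 50, -0.36 at 25 and -0.75 at 12.5 mg/kg-bw/day. Without vehicle mouse 1 the value at 50 was -1.62, below that of Pdk4, with an adjusted p of 0.123, and at 25 it was -0.83.

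Acadm in lung differed by little but with little spread. Vehicle mice measured 0.56, 0.96, 0.79, 0.78 and 1.03, and high-dose mice 0.64, 0.37, 0.40, 0.51 and 0.54. Again mouse 1 was the lowest vehicle mouse and overlapped the dosed mice. The differences were -0.20, -0.27 and -0.33 (SE 0.083) with rising dose, and the last had a limma adjusted p of 0.106 and an exact permutation p of 0.016. Without vehicle mouse 1 it was -0.40 with a limma adjusted p of 0.0330, below the fold threshold. With arrays centred on the median the differences of Acadm at 25 and 50 were 0.01 and -0.02.

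Cpt1a was higher than vehicle in lung, as was Fabp1, and at 25 mg/kg-bw/day the Cpt1a groups did not overlap. Its vehicle values were 0.61, 1.23, 1.23, 1.26 and 1.34, and those at 25 mg/kg-bw/day were 1.61, 1.70, 1.47, 1.69 and 1.79, with every dosed mouse above every vehicle mouse. The difference was 0.52 (SE 0.15), with an exact permutation p of 0.008, the smallest possible, and a limma adjusted p of 0.317. At this dose 6.54% of all probes had an unadjusted limma p below 0.05, and the share without overlap was not counted. The other probe of Cpt1a gave 0.43 (limma adjusted p = 0.219). At 50 mg/kg-bw/day the difference was 0.28 and at 12.5 it was 0.09, and both groups overlapped the vehicle mice. Without vehicle mouse 1, the lowest for Cpt1a too, the differences were -0.04, 0.39 and 0.15 with rising dose.

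Ppara itself was lower in lung at 50 mg/kg-bw/day by 0.35 on the log2 scale (limma adjusted p = 0.566), and its other probes gave -0.07 and -0.15. Lung Ehhadh stayed within 0.07 of vehicle at each dose, with 95% intervals between -0.26 and 0.23, the narrowest of the 8 genes after Acadm. Acot1 differed by -0.05, 0.22 and -0.25, and at 25 mg/kg-bw/day 5 of 5 mice lay above the vehicle mean. Lung Fabp1 differed by 0.27, 0.44 and 0.45 (SE 0.52). Mice 3, 8, 13 and 18 of 1 slide, whose arrays also stood apart by probes above background, measured 2.67 to 4.04, and the other 16 mice, which overlapped them, 3.99 to 6.30.

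Markers of fat cells were lower than vehicle in the dosed lungs, as were the means of Pdk4, Angptl4 and Acadm, whereas that of Cpt1a was higher. The mean log2 ratio of 6 brown fat markers was 1.08 to 2.81 in vehicle mice, 0.88 to 1.46 at 12.5, 0.94 to 1.30 at 25 and 0.63 to 1.48 at 50 mg/kg-bw/day. Vehicle mouse 1, the vehicle mouse with the lowest Pdk4, Angptl4, Acadm and Cpt1a, was also the lowest vehicle mouse for this list, and the other 4 vehicle mice lay above every dosed mouse. All 6 brown fat genes were lower at 50 mg/kg-bw/day, and 1 of them, Ucp1, the uncoupling protein of brown fat, passed the threshold (-3.05, limma adjusted p = 0.0165). The summed Cy5 signal of the list ranged from 11.13 to 13.48 (log2) in vehicle and from 10.69 to 11.78 in high-dose mice, and 1 of its 6 genes was above background on no high-dose array. White fat markers were lower in 8 of 8 genes (list means of 1.35 to 3.75 in vehicle and 0.98 to 2.03 at 50 mg/kg-bw/day), and heart muscle markers were lower in 8 of 8 (1.63 to 3.94 against 0.29 to 2.65), none passing the threshold. Their summed Cy5 signals were 11.4 to 15.6 against 11.2 to 13.0 and 13.3 to 17.4 against 12.3 to 15.2. Lung epithelial markers were level, with a list mean of 5.50 in both groups. Genes of the daily clock also differed in these lungs, with an unadjusted p below 0.05 for 7 of 10 at 50 mg/kg-bw/day and none past the threshold, from -0.73 for Arntl to 2.22 for Dbp. The mean log2 ratio of that list was -0.27 to 0.51 in vehicle and 0.40 to 0.72 in high-dose mice, with summed Cy5 signals of 13.9 to 15.06 and 14.64 to 15.55. The parts of fat tissue, heart tissue and time of day in the Pdk4, Angptl4, Acadm and Cpt1a values were not tested.

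**Figure D4:**
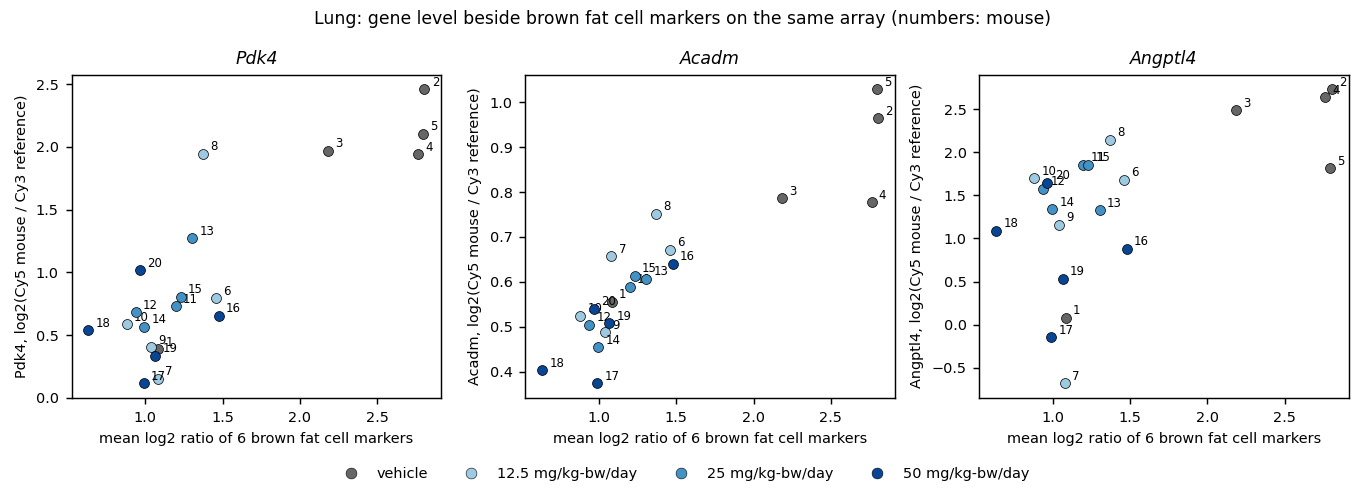
Log2 ratios of Pdk4, Acadm and Angptl4 in the 20 lungs against the mean log2 ratio of 6 brown fat markers on the same array, with mouse numbers and dose colours. Vehicle mice 2 to 5 stand to the right of all others, and vehicle mouse 1 lies at 1.08 among the dosed mice.

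The genes nearest to each lung gene were taken by correlation, and a selection is given. Over residuals from the group means of 20 mice and 13487 genes, the 3 genes with the highest Pearson r to Pdk4 were Plin4, a lipid droplet coat protein of fat cells (r = 0.93), Dgat2, which makes triglyceride (0.84), and Arxes2 (0.83). For Acadm they were Fabp4, the fatty acid binding protein of fat cells (0.85), Cox8b (0.84) and Retn, which encodes the hormone resistin (0.82). Angptl4 was nearest to Arrdc2 (0.84), Acot1 (0.83) and Rab3a (0.81), and Cpt1a to Snrnp40 (0.88), Fmnl2 (0.86) and Kank3 (0.86). These are the highest of many values and carry no test.

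In liver the 2 genes with an unadjusted p below 0.05 at 50 mg/kg-bw/day were Ppara and Fabp1. Ppara measured 7.30, 7.10, 6.64 and 7.07 in vehicle mice 1, 2, 3 and 5 and 6.43, 6.94, 6.65, 6.63 and 6.44 in mice 16 to 20. All high-dose mice lay below the vehicle mean, and vehicle mouse 3 lay among them. The difference was -0.41 (SE 0.18), with an exact permutation p of 0.048 and a limma adjusted p of 0.721, and its other probes gave -0.29 and -0.29. Fabp1 measured 11.42, 11.37, 10.44 and 11.39 in vehicle and 10.82, 11.15, 10.32, 10.24 and 9.54 in high-dose mice. The difference was -0.74 (SE 0.31, exact permutation p = 0.087, limma adjusted p = 0.721), and all 5 high-dose mice were below the vehicle mean.

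Hepatocyte markers were also lower in these livers, in 9 of 10 genes with a median of -0.42 and none past the threshold. Their mean log2 ratio was 7.21 to 8.09 in vehicle and 7.14 to 7.94 in high-dose mice, their summed Cy5 signal was 21.47 to 21.98 and 21.18 to 21.47, all 10 were above background on every array, and their part was not tested.

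The liver arrays that were low for Ppara lay on 1 slide or stood apart by the share of probes above background. On the slide, which held mice 3, 8, 13, 18 and 19, Ppara was 6.63 to 6.66 and Fabp1 10.24 to 10.44 whatever the dose. Mice 3, 8, 13 and 18 shared a lung slide too, so slide and group of mice cannot be told apart. The 5 arrays that stood apart by the share of probes above background (mice 9, 13, 15, 16 and 20) held 6.42 to 6.69 for Ppara and 9.54 to 10.82 for Fabp1. On the other 10 arrays Ppara was 6.94 to 7.30 and Fabp1 10.99 to 11.47, without overlap with either set. Of the vehicle mice 1 of 4, and of the high-dose mice 4 of 5, fell in those sets. With slide as a block the differences were -0.33 and -0.58, and without the arrays that stood apart they were -0.29 and -0.59. With arrays centred on the median in place of loess the Ppara difference turned to 0.15.

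The other liver genes spread widely at 50 mg/kg-bw/day. Pdk4 measured 2.50, 1.84, 1.58 and 2.55 in vehicle and 0.75, 1.63, 2.84, 1.06 and 0.59 in high-dose mice, so that the high-dose mice lay on both sides of the vehicle range. Its difference of -0.74 (SE 0.39, limma adjusted p = 0.739) was -0.28 without the arrays that stood apart and 0.01 with arrays centred on the median. Ehhadh differed by -0.27 (SE 0.17) and turned to 0.29 under the same centring. Acadm was 0.28 higher (SE 0.17, limma adjusted p = 0.752) and above the vehicle mean in 3 of 5 mice at 50 and in 5 of 5 at 25 mg/kg-bw/day. For Cpt1a the 2 probes disagreed, with 0.28 and -0.45, and mouse 20 alone reached 3.60 where the others were at most 2.93. Angptl4 ranged from 0.13 to 3.26 in high-dose mice, with a difference of -0.50 (95% interval within -1.97 to 0.97), and Acot1 differed by 0.06. Without vehicle mouse 2, whose Acot1 was high, the Acot1 difference was 0.51 at 50 and 1.09, in place of 0.65, at 25 mg/kg-bw/day.

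In forestomach every 95% interval of a difference from vehicle included 0 for the probes that represent the 8 genes. The other probe of Cpt1a was higher at 25 mg/kg-bw/day by 0.37 (95% interval 0.01 to 0.72, exact permutation p = 0.0079, limma adjusted p = 1.00), with groups that did not overlap, where the representing probe gave 0.26, or 0.08 without vehicle mouse 1. At 25 mg/kg-bw/day 3.59% of all probes had an unadjusted limma p below 0.05, and the share without overlap was not counted. At 50 mg/kg-bw/day the differences ran from -0.25 for Fabp1 (SE 0.76) to 0.32 for Pdk4 (SE 0.29), and that of Acadm was 0.21 (SE 0.13). Fabp1 varied most between mice, with an SD of 1.15 over all 19, against 0.47 for Ppara, which lay at 3.88 to 5.38. The exact permutation p of the 8 genes at 50 mg/kg-bw/day lay between 0.183 and 0.937, where the smallest that 4 against 5 mice allow is 0.0079. Glandular stomach markers were lower than vehicle in 9, 8 and 8 of 9 genes with rising dose, none past the threshold. Their medians were -1.76, -1.50 and -0.75, and their part in these differences was not tested.

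As a test that uses all doses, a straight line against dose gave no gene an adjusted p of 0.05 or less. The share of probes that reached it was 0.14% in lung and 0% in liver and forestomach. The lung slopes of Pdk4, Angptl4 and Acadm were -0.26, -0.24 and -0.07 (log2 per 12.5 mg/kg-bw/day), with limma adjusted p of 0.263, 0.552 and 0.155. Those of Ppara and Fabp1 in liver were -0.10 and -0.18, with adjusted p of 0.703 and 0.681.

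The effect of 50 mg/kg-bw/day was also compared between tissues in a joint fit. None of the 8 genes reached an adjusted p of 0.05, as did 0.0162% of probes for lung against liver, 0.00359% for forestomach against liver and 0.0144% for forestomach against lung. For Acadm the effect was -0.33 in lung and 0.28 in liver, with a difference of -0.61 (95% interval -0.99 to -0.23, limma adjusted p = 0.448), and the lung value was -0.02 with median centring. For Pdk4 the effect was 1.56 higher in forestomach than in lung (95% interval 0.55 to 2.57, limma adjusted p = 1.00). These comparisons share their vehicle mice within a tissue.

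Across the 104 pathway genes none passed the threshold at any dose. At 50 mg/kg-bw/day, 70 were lower and 34 higher in lung, with a median of -0.08 against 0.01 for all named genes, and 20 had an unadjusted limma p below 0.05 (19.2%, against 12.5% of all named genes). Lipolysis and lipid droplet genes were lower in 9 of 9 and fatty acid synthesis genes in 11 of 13, with medians of -0.19 and -0.29. The 3 lowest were Thrsp, a regulator of lipid synthesis (-1.98, limma adjusted p = 0.0509), Pdk4 and Angptl4, and the 3 highest were Fabp1 (0.45), Acaa1b (0.29) and Cpt1a (0.28). Of the mitochondrial β-oxidation genes 7 of 18 were higher, with a median of -0.01, and the 5 with an unadjusted limma p below 0.05 were all lower (27.8%, against 12.5% of all named genes). Markers of white and brown fat cells were lower in the same lungs, as given above, and their part in these lists was not tested.

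In liver at the same dose, 12 of 13 fatty acid synthesis genes were lower, with a median of -0.49, and 14 of 18 mitochondrial β-oxidation genes were higher, with a median of 0.19. Thrsp (-0.89), Acacb, which makes the malonyl-CoA that inhibits Cpt1a (-0.83), and Fasn, the fatty acid synthase (-0.77), were lowest, and the nuclear receptor Pparg (0.62), the ω-hydroxylase Cyp4a31 (0.57) and the fatty acid transporter Cd36 (0.55) were highest. In forestomach the synthesis genes had the other sign, with 12 of 13 higher and a median of 0.41, led by Scd1 (1.66), Thrsp (0.93) and Fasn (0.89). White fat markers were higher alongside, in 6 of 8 genes with a median of 1.16, none past the threshold. Their mean log2 ratio was 0.99 to 2.15 in vehicle and 0.99 to 4.81 in high-dose forestomachs, their summed Cy5 signal was 12.76 to 13.79 and 13.34 to 17.45, 1 of the 8 was above background on no vehicle array, and their part was not tested. Peroxisomal and mitochondrial β-oxidation genes were higher in 12 of 12 and 17 of 18, with medians of 0.13 each. The liver and forestomach counts and medians are given without those of all named genes. They therefore do not set these lists apart from a shift common to all genes. The forestomach genes with the lowest differences were Fabp3 (-1.17), Bdh1 (-0.25) and Acot13 (-0.24). A list of 9 liver genes that respond to fasting and feeding, which shares members with the synthesis list, had means of 4.19 to 4.39 in vehicle and 3.06 to 4.06 in high-dose livers, with 8 of 9 genes lower, and the part of feeding state was not tested.

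Angptl4 was the gene whose lung and liver values varied together across mice. Its values in lung and liver of the same mouse were -0.68 and -1.33 in mouse 7, -0.15 and 0.13 in mouse 17, and 2.73 and 3.16 in mouse 2. Mice 7 and 17 were the lowest of the 19 mice in both organs. Over residuals from the dose group means of 19 mice, Pearson's r was 0.87 and Spearman's rho 0.90 (permutation p = 1e-05, the smallest possible, and 2e-05, and 0.00024 and 0.00048 adjusted over 24 relations of 8 genes and 3 pairs of tissues). Without mice 7 and 1, the 2 farthest from the median in lung, r was 0.88. The lung and liver arrays lay on different slides, but mice of 1 lung slide also shared a liver slide, apart from mice 17 and 19. The permutations kept dose groups and not slides. Mice 2 and 7, whose values are given above, shared both a lung slide and a liver slide. The part of slide group in the relation was not tested, and no correlation within a slide is given. No other of the 24 relations had an adjusted p at or below 0.05, and Pdk4 had r = -0.23 between lung and liver (rho = -0.25, adjusted permutation p = 0.616 and 0.544, and r = -0.16 without 2 mice). Between forestomach and lung, Angptl4 had r = 0.47 and rho = 0.56 (adjusted permutation p = 0.283 and 0.139, and r = 0.43 without 2 mice).

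**Figure D5:**
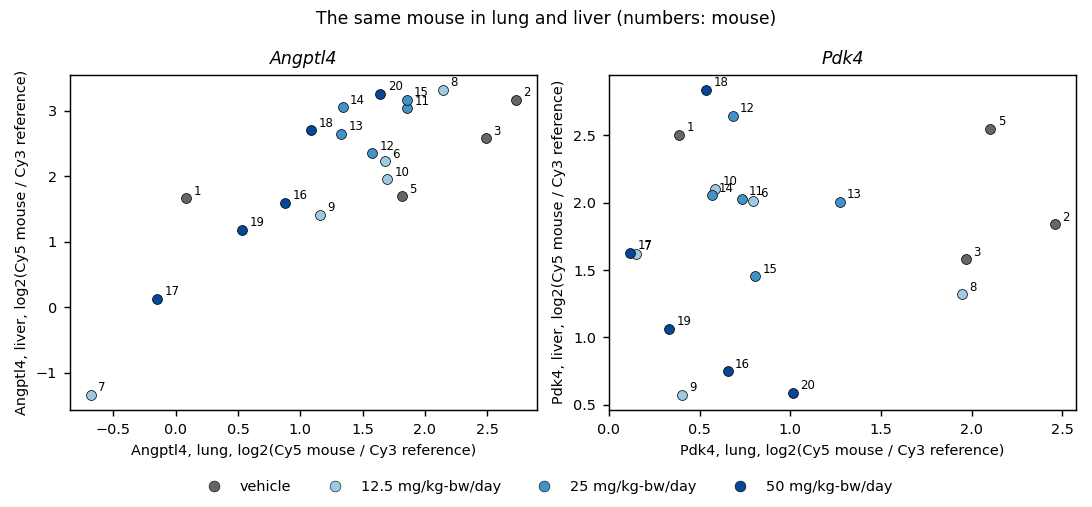
Log2 ratios of Angptl4 and Pdk4 in lung (horizontal) and liver (vertical) of the same 19 mice, with mouse numbers and dose colours. Angptl4 rises from mouse 7 at the lower left to mouse 2 at the upper right, and Pdk4 shows no such order.

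Within a tissue, the genes varied together in different pairs. Of 84 pairs (28 in each tissue) over residuals from group means, 8 had both Pearson's and Spearman's permutation p at or below 0.05 after Benjamini-Hochberg adjustment. In lung (20 mice) these were Pdk4 with Angptl4 (r = 0.80, rho = 0.74, adjusted permutation p = 0.0126 and 0.0208, and r = 0.68 without the 2 farthest mice), Pdk4 with Acadm (r = 0.75, rho = 0.73, adjusted permutation p = 0.0196 and 0.0208, and r = 0.59 without them) and Acot1 with Angptl4 (r = 0.83, rho = 0.71, adjusted permutation p = 0.0126 and 0.0349, and r = 0.70 without them). In liver (19 mice) Ppara varied with Ehhadh (r = 0.72, rho = 0.74, adjusted permutation p = 0.0196 and 0.0270, and r = 0.61 without 2 mice), with Pdk4 (r = 0.63, rho = 0.67, adjusted permutation p = 0.0334 and 0.0396, and r = 0.51) and with Fabp1 (r = 0.77, rho = 0.74, adjusted permutation p = 0.0160 and 0.0208, and r = 0.77). The liver pairs share the slide and the arrays that stood apart, as described for Ppara and Fabp1. In forestomach (19 mice) Cpt1a varied with Ehhadh (r = 0.77, rho = 0.78, adjusted permutation p = 0.0196 and 0.0208, and r = 0.67 without 2 mice) and with Fabp1 (r = 0.65, rho = 0.70, adjusted permutation p = 0.0396 for both, and r = 0.47), though the mouse signal of Fabp1 was above background on 15 of these 19 arrays and the reference signal on 4. The part of glandular stomach tissue, whose markers varied between forestomachs, in the forestomach pairs was not tested. Slides held 3 to 7 mice of a tissue, and within-slide values are not given.

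The nearest genes differed by tissue. In liver (19 mice, 10757 genes) Angptl4 was nearest to Crot, the peroxisomal carnitine octanoyltransferase (r = 0.85), Acadm to Ech1, an auxiliary enzyme of β-oxidation (0.83), and Acot1 had Pex11a, a peroxisome proliferation factor (0.71), among its nearest 3. Fabp1 was nearest to Ces3a (0.99) and Ppara to Apon (0.95), a pair of genes also expressed by hepatocytes. In forestomach (11326 genes) Ppara was nearest to Tenm2 (0.95), Lgi4 (0.95) and Col17a1, a collagen of basal epithelial cells (0.94), and Cpt1a to Os9 (0.96).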

How the data were processed

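Scanner files of 58 two-colour Agilent arrays were used. The deposited intensity values are median pixel brightnesses that the authors' Agilent Feature Extraction software wrote before correction. The deposited log10 ratios were background subtracted and dye normalized by that software. The log2 ratios deposited by the authors had been LOWESS normalized. Their liver columns did not match the scanner values under the given probe names (r = -0.007 to 0.007, against 0.996 to 0.999 in lung and forestomach) and were left out.

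Log2(Cy5/Cy3) of the median signals was normalized by loess within each array without background subtraction, outlier spots were removed and the spots of a probe averaged. No filter on low values was applied. Probes were named by accession (27224 probes, 20651 genes), and the brightest probe represented a gene. The software was limma 3.58.1 under R 4.3.3, with statmod 1.5.0 for blocks and data.table (version 1.17.8) for input. Each tissue was fitted in 1 limma model of 4 groups, and tissues were compared in a joint model of all arrays. All p-values were two-sided and Benjamini-Hochberg adjusted over 55681 probes. A gene passed at a 1.5-fold change with an adjusted p of at most 0.05, and slopes and differences of effects at the adjusted p alone. Exact tests used all assignments of mice, and correlations 1e+05 permutations within dose groups. The number of arrays limits the precision.

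Named genes are the 8 genes, listed pathway genes that passed at any dose (none did), the 3 largest increases and decreases among detected pathway genes at 50 mg/kg-bw/day, and the 3 genes nearest to each of the 8, of which a selection is printed; Ucp1, Dbp and Arntl were named after their values were seen. The genes and lists were chosen with earlier results of these data known. Alternatives were normexp (run on median signals, since the planned mean signals were not used here), median centring, Cy5 alone, the scanner ratio, the authors' values (lung and forestomach), outlier spots kept, dim probes left out, robust eBayes, slide or mouse as a block, 2 groups alone, all probes averaged, other thresholds, each mouse left out and, chosen after seeing the data, arrays left out whose share of probes above background exceeded the tissue median by 20 points. Mouse numbers name the same animal in the 3 tissues. Residuals of the same mouse correlated over 15993 probes with a median r of 0.108 between lung and liver, 0.231 between forestomach and lung and 0.0764 between forestomach and liver. Scripts were tested on simulated data.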

Additional observations from a re-analysis of the deposited data

Results flagged for a closer look

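In 7 of 96 groups of 4 or 5 mice, 1 mouse lay far from the others relative to the group's range, which chance gives in about 1 of 20 groups. Vehicle mouse 1 was the low mouse in 4 of them. Its lung log2 ratios were 0.61 for Cpt1a and 0.39 for Pdk4, against 1.23 to 1.34 and 1.94 to 2.46 in the other vehicle mice, and its forestomach ratios were 0.62 for Cpt1a and 3.05 for Pdk4, against 1.30 to 1.41 and 3.29 to 3.32. Without it, lung Pdk4 at 50 mg/kg-bw/day passed the threshold (-1.59). Acot1 in vehicle liver was high in mouse 2 (1.52, against -0.35 to -0.10). At 12.5 mg/kg-bw/day, forestomach Acot1 was low in mouse 6 (2.55, against 4.08 to 4.67). Fabp1 in vehicle liver was low in mouse 3 (10.4, against 11.37 to 11.42), the vehicle mouse on the liver slide where all 5 mice had low Fabp1.

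At 25 mg/kg-bw/day, Angptl4 was above the liver vehicle mean in 5 of 5 mice (0.58) and below the lung vehicle mean in 5 of 5 (-0.36), and Acadm likewise (0.33 in liver and -0.27 in lung). These opposite directions at 25 mg/kg-bw/day were not tested as differences. The livers and lungs are from the same mice.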

How the results depend on the processing

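With mouse as a replicate block, the pairing of tissues changed no call (6, 8 and 6 genes passed between tissues and 0, 0 and 0 between effects, with a correlation of 0.0502 within mice). With slide as a block, 1 gene (Pdk4) passed in lung at 50 mg/kg-bw/day, beside 156 of all 55681 probes, against 44 probes without the block. Leaving out each mouse gave 0 to 1 genes there (Pdk4 without vehicle mouse 1, beside 64 probes), 7 to 8 in forestomach against liver, and the main count elsewhere. The shares of all probes for the tissue counts under these alternatives are not given. At an unadjusted limma p, lung had 2, 3 and 4 genes with rising dose, beside 2181, 3639 and 4904 of all 55681 probes. Liver at 50 had 2, beside 3808 probes. The lung and liver slopes had 3 and 2 genes, beside 4907 and 3877 probes. For the effect differences, lung and liver had 1 gene beside 3937 probes, and forestomach and liver had 1 beside 3423. Forestomach and lung had 2 beside 1625 probes. With a fold change of 1.2 added, lung had 1, 3 and 4 genes, beside 594, 1294 and 1980 probes. Liver at 50 then had 2, beside 2848 probes.

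A value was counted as turned where its sign changed and it or the main value exceeded its standard error. Median centring turned, in lung, Acadm at 25 (0.0059), Acot1 at 50 (0.026) and the Acot1 slope (0.0093). In liver it turned Ppara (0.24, 0.28 and 0.15 at the 3 doses), Ehhadh (0.31, 0.25 and 0.29), Pdk4 at 25 and 50 (0.27 and 0.0069) and their slopes (0.022, 0.049 and 0.019). It also turned the forestomach slope of Ppara (0.064), Pdk4 in lung against liver (0.81), Cpt1a in forestomach against lung (-0.59) and the effect difference of Ppara between lung and liver (-0.32). Cy5 alone turned liver Ppara at 25 (0.20), as did leaving out the arrays that stood apart (0.17). The scanner ratio turned lung Ehhadh at 50 (0.22) and its slope (0.062), and ended the call of Fabp1 in forestomach against lung (-1.24). The mean over probes turned liver Cpt1a at 50 (-0.086), its slope (-0.016) and its effect difference between forestomach and liver (0.28), since the 2 probes disagree. The cause of the other changes was not tested. Dim Fabp1 spots in lung and forestomach limit its folds.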
